A study of Mus musculus with 3 samples.

Results

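The imprinted growth genes described here are *H19*, *Igf2*, *Igf2r*, *Peg3*, *Dlk1*, *Meg3*, *Mest*, *Plagl1*, *Grb10* and *Peg10*. They were taken as a named set of 10 genes, out of 22911 genes that the array could name, and each was read by the probes whose RefSeq accession belongs to it, 19 probes in all. The study compared 3 lines of murine colon adenocarcinoma. Colon26 is the parental line, from a female BALB/c mouse, LuM1 is its high-metastatic subline and NM11 its low-metastatic subline, and the labels name no transgene or drug treatment for any of them. Each line was a single culture grown for 3 days in RPMI1640 medium with serum, penicillin, streptomycin and amphotericin B, from which 0.1 µg of total RNA was labelled with Cy3 and hybridized to 1 single-colour array. In such bulk cultures, fewer cells making a transcript and less RNA per cell cannot be told apart.

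An imprinted gene is read mainly from one parental copy, because the other copy is silenced by marks laid down in the germ line. Many of these genes set the size of the fetus and placenta through the insulin-like growth factor axis: *Igf2* encodes a growth-promoting ligand, *Igf2r* a receptor that carries this ligand to the lysosome for degradation, and *Grb10* an adaptor that dampens insulin receptor signalling. Most of them fall silent or nearly so in postnatal tissue, and tumors of several kinds express some of them again.

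With 1 array per line there was no replicate check and no test, so the differences below describe these 3 cultures. Signals are scanner brightness after background correction, scaled so that the 75th percentile of each array became 399.9, in arbitrary units that can be compared between lines for 1 probe but not between probes. The error written after ± is the scanner software's own, about 10.1% of a bright signal, and it covers technical error on the array alone. The software called 49.9% to 53.8% of the probes well above background. Where a probe fell short of that call, only a bound was known, set by its own signal or by the array's detection limit, whichever is higher. The limit is the dimmest signal that was still called well above background, 26.4 for Colon26, 19.8 for LuM1 and 19.9 for NM11. Where a gene had several probes, the brightest one stood for it.

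The software placed 4 of the 10 genes well above background on at least 1 array (*Igf2r*, *Plagl1*, *Peg10* and *Grb10*), and 6 on none (*H19*, *Igf2*, *Peg3*, *Dlk1*, *Meg3* and *Mest*). Among all named genes 64.7% were well above background on at least 1 array. Only *Igf2r* and *Plagl1* were measured in all of the lines. *Igf2r* and *Peg10* stood more than 2-fold above both other lines in LuM1 cells. *Plagl1* differed by less than its scanner error, and *Grb10* was seen in Colon26 cells alone. For *Peg10* and *Grb10* only the brighter probe was read, from a spot in a patch of spots seen on that array alone. The other probe of each was below the detection limit on every array.

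**Figure D1:**
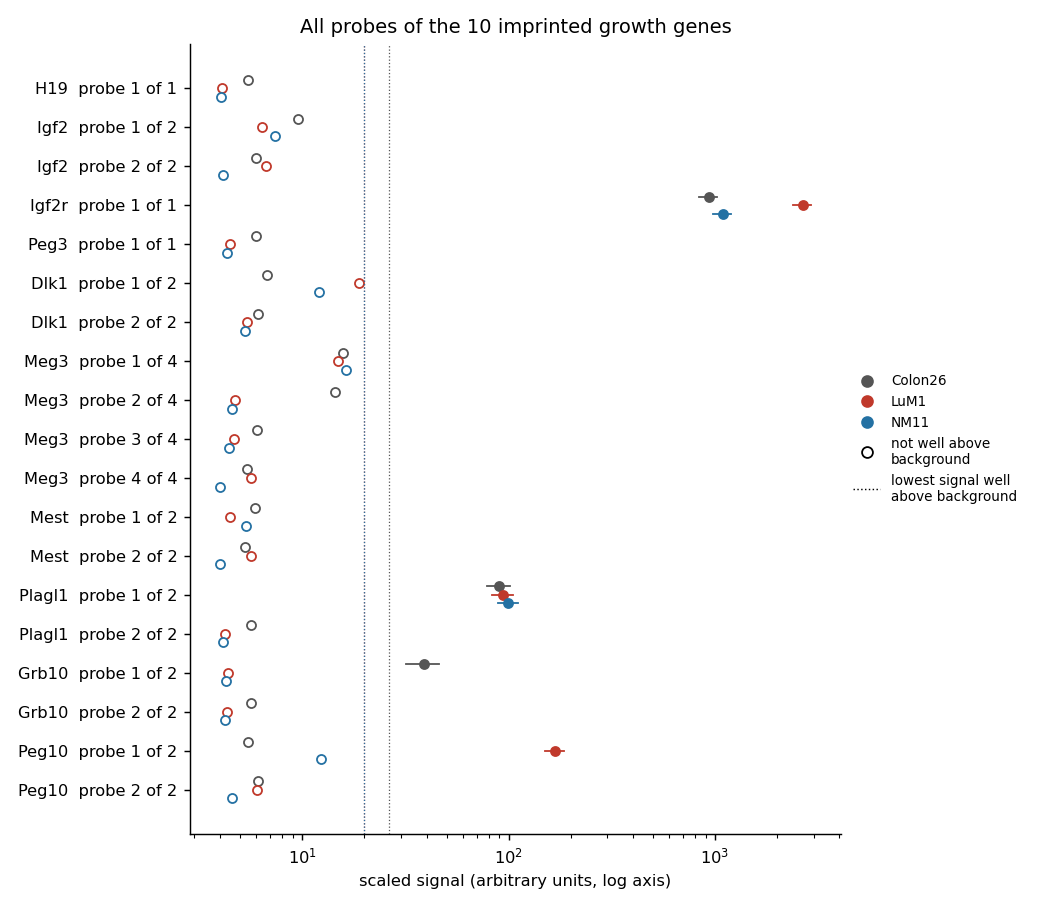
Scaled signal (arbitrary units, log axis) of each of the 19 probes on the Colon26, LuM1 and NM11 arrays. Filled points were well above background and carry the scanner error as a bar, hollow points were not, and the dotted lines mark the lowest signal well above background on each array. *Igf2r* and the brighter *Plagl1* probe are filled for all lines, the brighter *Peg10* probe is filled for LuM1 at 168 and the brighter *Grb10* probe for Colon26 at 38.8.

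*Igf2r*, on chromosome 17, encodes the cation-independent mannose 6-phosphate receptor, which sorts lysosomal enzymes and clears IGF2, and in most mouse tissues it is read from the maternal copy. Its 1 probe (A_51_P125467, RefSeq NM_010515) gave a signal of 933 ± 93.4 in Colon26 cells, 2658 ± 266 in LuM1 cells and 1087 ± 109 in NM11 cells. LuM1 stood above both other lines, which lay close to each other. The *Igf2r* mRNA level in LuM1 cells exceeded the Colon26 level 2.85-fold (log2 ratio 1.51, scanner error 0.20) and the NM11 level 2.44-fold (log2 ratio 1.29, scanner error 0.20). Between NM11 and Colon26 cells the log2 ratio was 0.22, about the size of its scanner error of 0.20, and it changed sign when the arrays were scaled to *Hprt* (-0.29). The first pair of ratios share the LuM1 array and are therefore not independent of each other.

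Since *Igf2r* and *Plagl1* were the members measured on every array, and one differed between the lines while the other did not, the 250 bases upstream of their transcription starts are shown, on the coding strand from 5′ to 3′ as RefSeq gives them for GRCm38.p6. *Igf2r* lies on the minus strand, and its stretch is chr17:12769707-12769956. *Plagl1* lies on the plus strand, and its stretch is chr10:13090582-13090831. Capitals mark the E-box letters CACGTG, which read the same on both strands.
Igf2r: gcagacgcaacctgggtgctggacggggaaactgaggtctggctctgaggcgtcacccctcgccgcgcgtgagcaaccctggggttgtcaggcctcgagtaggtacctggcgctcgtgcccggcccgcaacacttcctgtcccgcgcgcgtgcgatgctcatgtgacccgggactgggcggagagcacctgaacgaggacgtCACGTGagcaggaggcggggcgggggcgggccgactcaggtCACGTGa
Plagl1: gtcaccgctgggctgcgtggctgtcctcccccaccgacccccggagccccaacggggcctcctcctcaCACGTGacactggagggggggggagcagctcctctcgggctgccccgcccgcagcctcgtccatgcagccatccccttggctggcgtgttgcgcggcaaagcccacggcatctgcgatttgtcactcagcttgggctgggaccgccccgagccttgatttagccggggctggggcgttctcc
The *Igf2r* stretch holds the E-box letters at 2 places, beginning 48 and 7 bases before the start, and the *Plagl1* stretch at 1 place, beginning 182 bases before it. Of 32851 upstream stretches of the same length in the RefSeq table, 6.02% hold these letters. The GC box letters GGGCGG, sought on both strands, occur at 3 places in the *Igf2r* stretch and at 2 in the *Plagl1* stretch, against at least 1 in 32.7% of all stretches. The letters TATAAA, also sought on both strands, are in neither stretch and occur in 12.4% of all stretches. Both stretches are rich in G and C, 69.2% for *Igf2r* with 27 CG pairs and 70.4% for *Plagl1* with 19, whereas the median over all stretches is 52.4% with 6 CG pairs. The shares over all stretches were not matched for this content of G and C. These matches describe letters, and binding at them was not measured.

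The genes whose pattern over the 3 arrays lay nearest to that of *Igf2r* were *Rec8*, *Srl* and *Pld1*, which encode a meiotic cohesin subunit, sarcalumenin and phospholipase D1. Likeness was the distance between log2 signals centred on the gene's mean over the 3 arrays, among 12248 other genes well above background on all of them. The distances were 0.022, 0.049 and 0.051. In LuM1 over Colon26 the log2 ratio was 1.52 for *Rec8*, 1.54 for *Srl* and 1.45 for *Pld1*, beside 1.51 for *Igf2r*. With only 3 arrays such likeness is common, and 95 genes lay within 0.25 of *Igf2r*.

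*Airn*, a noncoding RNA read from the paternal copy, overlaps *Igf2r* on the opposite strand and is known to silence it in cis. The brighter of its 2 probes gave 377 ± 38.1 in Colon26 cells, 589 ± 59.0 in LuM1 cells and 357 ± 36.0 in NM11 cells, and the other probe was not well above background on any array. *Airn* was thus also highest in LuM1 cells, with a log2 ratio of 0.64 over Colon26 and 0.72 over NM11, both short of 2-fold. The other genes named here from this region did not share the *Igf2r* pattern. *Tcp1*, a chaperonin subunit, was 2.03-fold lower in LuM1 cells than in Colon26 cells, *Mrpl18*, a mitochondrial ribosomal protein, had a log2 ratio of -0.34, and *Slc22a3*, an organic cation transporter, was just above the detection limit in NM11 cells alone. *Mas1* and *Slc22a2* were not well above background on any array.

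*Peg10*, on chromosome 6, is a paternally expressed gene derived from a retrotransposon and needed for the placenta. Its brighter probe (A_52_P377723, RefSeq NM_001040611) gave 5.46 in Colon26 cells, 168 ± 17.3 in LuM1 cells and 12.3 in NM11 cells, and only the LuM1 signal was well above background. The *Peg10* mRNA in LuM1 cells exceeded the Colon26 level by at least 6.36-fold (log2 bound 2.67) and the NM11 level by at least 8.43-fold (log2 bound 3.08). The second *Peg10* probe (A_55_P2029763), named through the same accession, did not show this. Its signals lay between 4.57 and 6.12, below the detection limit on every array. The bright spot also lay in a patch of the LuM1 array: 13 of the 119 spots within 5 rows and columns of it (10.9%) were well above background on that array alone, against 3.49% over the whole array. These 13 spots had a median signal of 105 and reached 321, and 2 of them were at least as bright as *Peg10*. The part of this patch in the *Peg10* signal was not tested.

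The genes beside *Peg10* gave a different picture. *Sgce*, which encodes a sarcoglycan and shares the *Peg10* promoter region, was not well above background on any array by either of its probes. *Casd1*, a sialic acid acetyltransferase, was 8.77-fold higher in LuM1 cells and 7.19-fold higher in NM11 cells than in Colon26 cells, with signals of 47.0 ± 7.28, 412 ± 41.4 and 338 ± 34.1 in Colon26, LuM1 and NM11. *Pon3*, a paraoxonase, was 3.01-fold higher in LuM1 cells and 2.79-fold higher in NM11 cells than in Colon26 cells. Both of these neighbours were therefore raised in LuM1 and NM11 alike, where *Peg10* was seen in LuM1 alone. *Pon2* had log2 ratios between -0.42 and 0.26, *Asb4* was just above the detection limit in LuM1 cells, and *Pon1* and *Ppp1r9a* were not well above background on any array.

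*Grb10*, on chromosome 11, encodes a growth factor receptor-bound adaptor that restrains insulin and IGF1 signalling and is maternally expressed outside the brain. Its brighter probe (A_55_P1955457, RefSeq NM_010345) gave 38.8 ± 6.93 in Colon26 cells, 4.37 in LuM1 cells and 4.27 in NM11 cells. Only the Colon26 signal was well above background, and the level there was at least 1.95-fold that in LuM1 cells and at least 1.95-fold that in NM11 cells, log2 bounds of -0.97 and -0.96 for the sublines over Colon26. The second probe gave 5.65, 4.30 and 4.20 in Colon26, LuM1 and NM11, all below the detection limit. Around the bright spot, 13 of 113 spots (11.5%) were well above background on the Colon26 array alone, against 1.89% over the whole array, and 12 of them were at least as bright as *Grb10*. The part of this patch in the *Grb10* signal was not tested. Its neighbours *Ddc*, *Cobl* and *Ikzf1* were not well above background on any array.

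*Plagl1*, on chromosome 10, is a paternally expressed zinc-finger transcription factor that holds back the cell cycle and acts on other imprinted genes. Its brighter probe (A_55_P1961965, RefSeq NM_009538) gave 90.0 ± 11.1 in Colon26 cells, 94.0 ± 10.6 in LuM1 cells and 99.4 ± 11.0 in NM11 cells, so that the 3 signals lay within 1 scanner error of each other. The log2 ratio was 0.06 for LuM1 over Colon26, 0.14 for NM11 over Colon26 and -0.08 for LuM1 over NM11, with scanner errors of 0.24, 0.24 and 0.23. The second probe, at 5.67, 4.20 and 4.11, was below the detection limit in each line. The neighbouring genes *Phactr2*, *Sf3b5* and *Ltv1* were measured in all lines, and only *Ltv1*, a ribosome assembly factor, passed 2-fold, being 2.31-fold lower in LuM1 cells than in Colon26 cells.

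**Figure D2:**
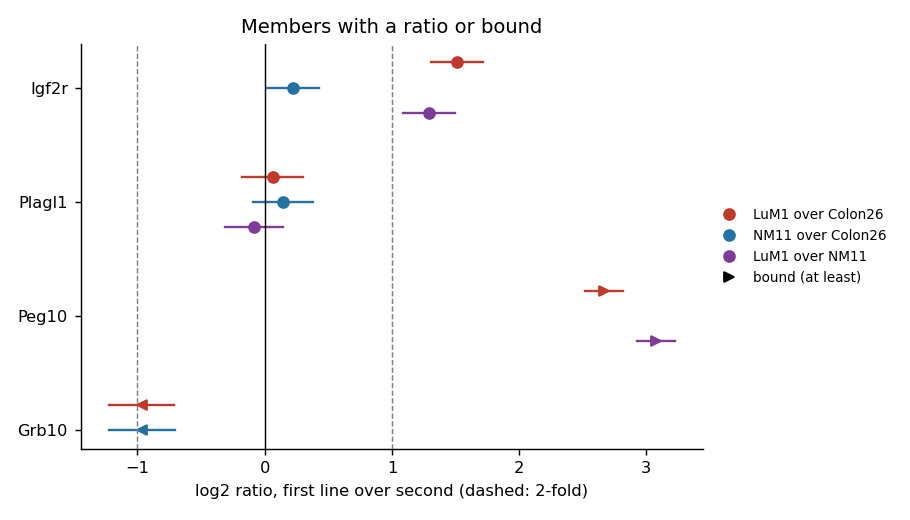
Log2 ratios of the members that had one, first line over second, with circles for ratios, arrowheads for bounds that point the way the true value may lie, and bars for the scanner error. The dashed lines mark 2-fold. *Igf2r* lies at 1.51 and 1.29 and *Peg10* at 2.67 and 3.08 for LuM1 over Colon26 and over NM11, *Plagl1* lies around 0, and *Grb10* lies just short of 2-fold.

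The 12 probes of the 6 members below the detection limit ranged from 5.29 to 15.7 in Colon26, from 4.09 to 18.8 in LuM1 and from 3.97 to 16.2 in NM11. Much of this range is the scanner error itself, which the software writes in place of a signal that is not significantly above background. *Igf2*, the ligand of the axis, gave 9.58 in Colon26 cells, 6.40 in LuM1 cells and 7.36 in NM11 cells by its brighter probe. *H19*, the maternally expressed noncoding RNA of the same domain on chromosome 7, gave 5.48, 4.09 and 4.02 in Colon26, LuM1 and NM11. Neither gene could be compared between the lines.

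*Dlk1*, a paternally expressed transmembrane protein related to Notch ligands, came nearest to the detection limit in LuM1 cells. Its brighter probe gave 6.74 ± 5.99 in Colon26 cells, 18.8 ± 4.87 in LuM1 cells and 12.0 ± 4.50 in NM11 cells, and its other probe stayed between 5.28 and 6.13. *Meg3*, the maternally expressed noncoding RNA of the same domain on chromosome 12, had 4 probes. The brightest gave 15.7 ± 6.07, 14.9 ± 4.76 and 16.2 ± 4.62 in Colon26, LuM1 and NM11, significantly but not well above background in each, and these values differed by less than the scanner error. *Mest*, a paternally expressed protein of the hydrolase fold on chromosome 6, and *Peg3*, a paternally expressed zinc-finger protein on chromosome 7, stayed at 5.99 or below on every array.

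In LuM1 over Colon26, 4 members had a ratio or bound, and 2 of them (*Igf2r* and *Peg10*) were at least 2-fold higher, where 12.9% of all 14172 named genes with a ratio or bound were. None was at least 2-fold lower, where 12.2% of all genes were. In NM11 over Colon26, of 3 members with a value, 0 were at least 2-fold higher (8.63% of 13852 genes) and 0 were lower (7.57%). In LuM1 over NM11, of 3 members with a value, *Igf2r* and *Peg10* were higher (10.6% of 14415 genes) and 0 were lower (9.41%). Over all named genes the median log2 value was -0.12, 0.01 and -0.14 for these comparisons. Genes that exceeded both other lines by 2-fold or more in LuM1 cells made up 7.63% of the 13759 genes with both values. With 3 or 4 members measured, these counts are too small to be set apart from the shares over all genes. Without probes that lay in patches like those of *Peg10* and *Grb10*, a check chosen after seeing the data, *Igf2r* alone was higher in LuM1 cells and both members' bounds were lost.

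**Figure D3:**
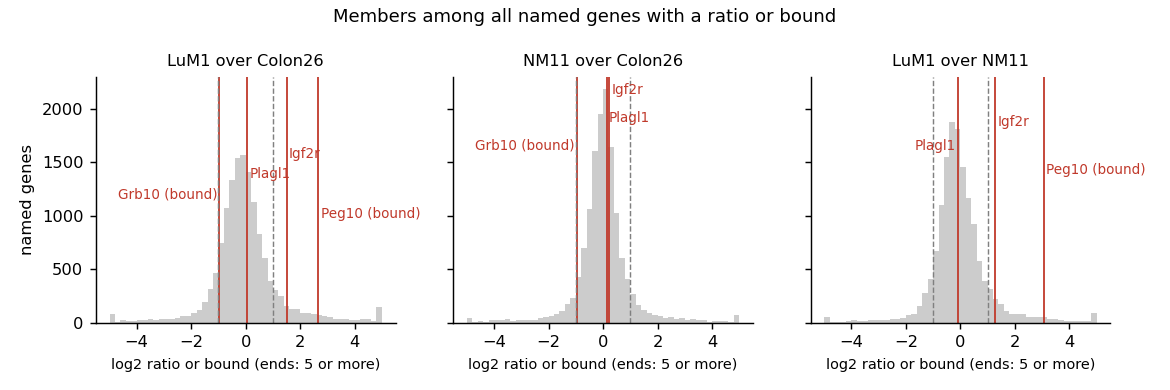
Number of named genes by log2 ratio or bound in each comparison, with values beyond 5 drawn in the end bins, and with the members that had a value drawn as red lines. The dashed lines mark 2-fold. *Igf2r* and *Peg10* lie to the right of the bulk of the genes in both comparisons with LuM1, *Plagl1* lies within the bulk in all of them, and *Grb10* lies just inside the 2-fold line on the left in the comparisons with Colon26.

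The chromosomal neighbours were listed for all members, those measured above included. Of 40 on the array, 25 were well above background on at least 1 array, where 64.7% of all named genes were. In LuM1 over Colon26, 4 of 22 with a value were at least 2-fold higher (*Casd1*, *Pon3*, *Ctsd* and *Begain*), against 12.9% of all genes. Another 4 were at least 2-fold lower (*Ltv1*, *Tcp1*, *Wdr25* and *Mirg*), against 12.2% of all genes. The median log2 value was -0.10. *Casd1* and *Pon3* lie beside *Peg10*, *Ltv1* beside *Plagl1* and *Tcp1* beside *Igf2r*. *Ctsd*, the lysosomal protease cathepsin D, lies in the region of *Igf2* and *H19* and is one of the enzymes that the *Igf2r* product sorts. Its signal was 6853 ± 685 in Colon26 cells, 20766 ± 2077 in LuM1 cells and 14741 ± 1474 in NM11 cells, 3.03-fold and 2.15-fold higher in the sublines than in Colon26. *Ins2*, the insulin gene next to *Igf2*, was read in LuM1 cells alone at 46.0 ± 7.58, from a spot in a patch like that of *Peg10*. *Th*, *Tnnt3*, *Lsp1* and *Mrpl23* had log2 ratios between -0.66 and 0.31 by their brightest probes, and *Nctc1* lay at the detection limit. The other *Th* probe was read in LuM1 cells alone, at 49.9, with log2 bounds of 0.92 over Colon26 and 1.33 over NM11.

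At the *Dlk1* and *Meg3* domain, *Rian*, *Rtl1* and *Dio3* were not well above background on any array. *Mirg*, a noncoding RNA that hosts microRNAs, was read in Colon26 cells alone at 39.9 ± 7.13, at least 2.01-fold above both sublines. *Begain*, a synaptic scaffold protein, was read in LuM1 cells alone at 199 ± 20.3, at least 7.55-fold above Colon26 and at least 10.0-fold above NM11, and its spot also lay in a patch of spots seen on that array alone. *Wdr25* was at least 2.27-fold lower in LuM1 cells and 2.07-fold lower in NM11 cells than in Colon26 cells. Beside *Mest*, *Copg2* and *Cep41* were measured in all lines without reaching 2-fold, as was *Klhdc10*, and *Cpa1* was not seen. Beside *Peg3*, *Usp29* and *Zim1* were not seen.

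Other imprinted genes, chosen like the members with earlier results of these data known, were split by the parental copy listed as mainly expressed. The array does not tell the parental copies apart, so imprinting in these cells was not measured. Of 23 other paternally expressed genes on the array, 12 were well above background on at least 1 array, where 64.7% of all named genes were. In LuM1 over Colon26, 2 of 12 with a value were at least 2-fold higher (*Peg13* and *Impact*), against 12.9% of all genes. Of the 12, 1 was at least 2-fold lower (*Sfmbt2*), against 12.2% of all genes, and the median log2 value was 0.29. *Peg13*, a noncoding RNA, gave 298 ± 30.3 in Colon26 cells, 1341 ± 134 in LuM1 cells and 259 ± 26.2 in NM11 cells, so that LuM1 stood 4.50-fold and 5.18-fold above the others, and LuM1 was highest as it was for *Igf2r*. *Impact*, a regulator of translation, was 2.85-fold higher in LuM1 cells than in Colon26 cells, with NM11 between them. *Sfmbt2*, a Polycomb protein, was lowest in LuM1 cells, at least 2.27-fold below Colon26 and at least 4.50-fold below NM11 by its brightest probe. Of its 2 other probes, 1 was read in NM11 cells alone, at 26.3, and 1 on no array. In NM11 over Colon26, 0 of 10 passed 2-fold, against 8.63% of all genes higher and 7.57% lower. In LuM1 over NM11, *Peg13* and *Ins2* were higher and *Sfmbt2* lower, of 11, against 10.6% and 9.41% of all genes.

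Of 33 other maternally expressed genes, 22 were well above background on at least 1 array, where 64.7% of all named genes were. In LuM1 over Colon26, 3 of 20 with a value were at least 2-fold higher (*Dcn*, *Htr2a* and *Cd81*), against 12.9% of all genes. Of the 20, 1 was at least 2-fold lower (*Mirg*), against 12.2% of all genes, and the median log2 value was -0.08. *Dcn*, the proteoglycan decorin, which is also a marker of fibroblasts, gave 6.06 in Colon26 cells, 27116 ± 2712 in LuM1 cells and 9751 ± 975 in NM11 cells, at least 1028-fold and at least 370-fold above Colon26. *Cd81*, a tetraspanin, was 5.50-fold higher in LuM1 cells and 4.20-fold higher in NM11 cells than in Colon26 cells. *Htr2a*, a serotonin receptor, was read in LuM1 cells alone, at 365 ± 36.8. *Slc22a18*, a transporter, was 7.56-fold higher in LuM1 than in NM11 cells by its brighter probe, with a log2 ratio of 1.26 by the other. The growth-restraining genes *Cdkn1c* and *Phlda2* were not well above background on any array.

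**Figure D4:**
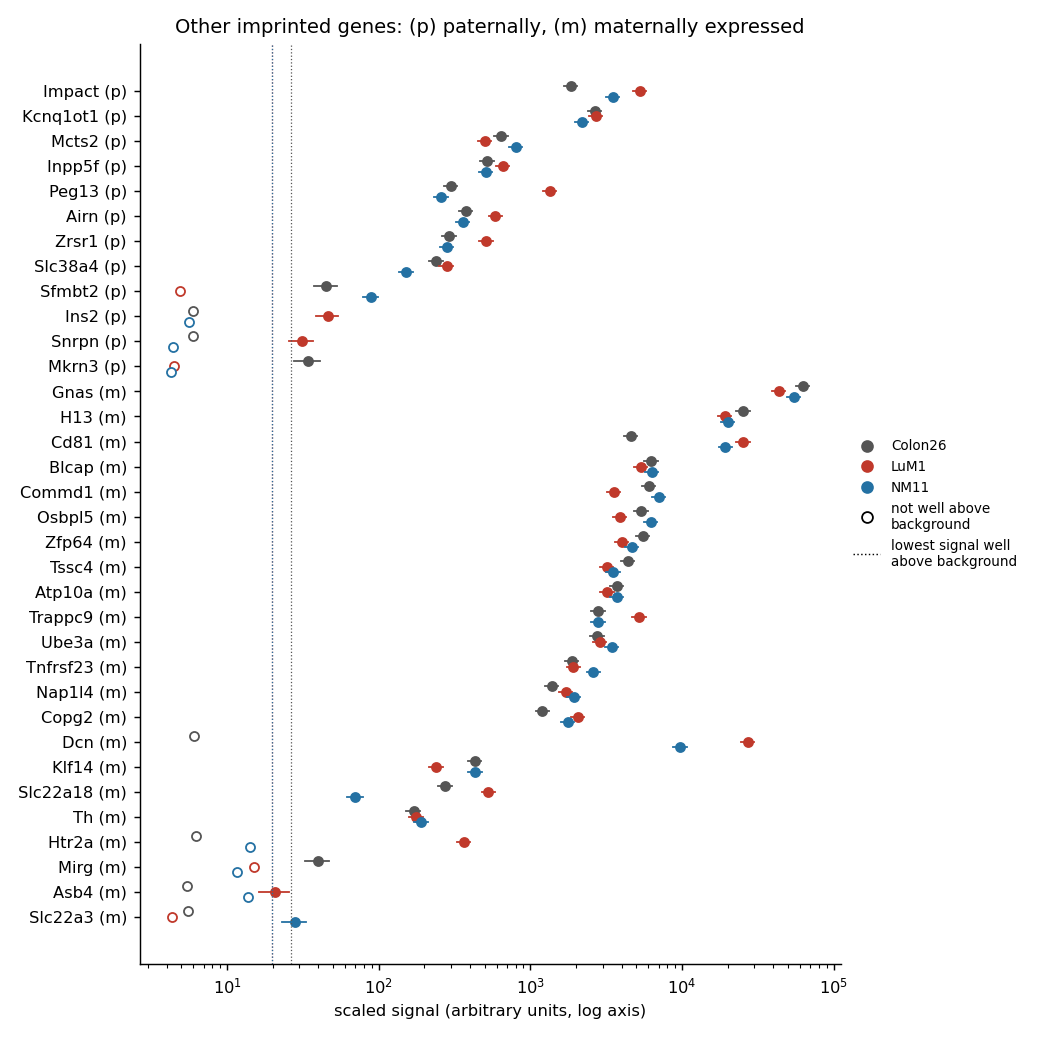
Scaled signal (arbitrary units, log axis) of the other imprinted genes detected in at least 1 line, by line, with (p) for paternally and (m) for maternally expressed genes and bars for the scanner error. Hollow points were not well above background, and the dotted lines mark the lowest signal well above background on each array. *Dcn* shows the widest gap, from 6.06 in Colon26 to 27116 in LuM1, and *Peg13* is highest in LuM1 at 1341.

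Downstream of the members, the receptors that carry the IGF signal differed little. *Igf1r*, the signalling receptor for IGF1 and IGF2, gave 5486 ± 549 in Colon26 cells, 4417 ± 442 in LuM1 cells and 4968 ± 497 in NM11 cells, with log2 ratios between -0.31 and -0.14. *Insr*, the insulin receptor, gave 136 ± 14.9, 122 ± 13.1 and 127 ± 13.4 in Colon26, LuM1 and NM11, within the scanner error. Of 20 genes of IGF and insulin signalling, 19 were well above background on at least 1 array, where 64.7% of all named genes were. In LuM1 over Colon26, 2 of 18 were at least 2-fold higher (*Pik3r1* and *Pik3ca*, subunits of PI 3-kinase), against 12.9% of all genes. Another 3 were at least 2-fold lower (*Grb14*, *Irs2* and *Akt1*), against 12.2% of all genes. *Grb14*, the adaptor related to *Grb10*, was the farthest apart, with 1360 ± 136 in Colon26 cells, 27.0 ± 4.90 in LuM1 cells and 87.2 ± 9.62 in NM11 cells, a 50.4-fold and a 15.6-fold difference from the parental line. In NM11 over Colon26, 5 of 19 were higher (*Pik3r1*, *Pik3ca*, *Igf1*, *Irs1* and *Foxo3*), against 8.63% of all genes. *Grb14* was lower, against 7.57% of all genes. In LuM1 over NM11, 0 of 19 were higher, against 10.6% of all genes. In that comparison 5 were at least 2-fold lower, among them *Igf1*, *Grb14*, *Irs2* and *Irs1*, against 9.41% of all genes. *Igf1*, a ligand of the axis, was read in NM11 cells alone, at 86.9 ± 9.56.

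Of 24 genes that regulate imprinted or *Igf2* expression, 23 were well above background on at least 1 array, where 64.7% of all named genes were. In LuM1 over Colon26, 2 of 22 were at least 2-fold higher (*Tgfb1* and *Igf2bp3*), against 12.9% of all genes. Another 4 were at least 2-fold lower (*Igf2bp2*, *Hmga1*, *Hmga2* and *Zfp568*), against 12.2% of all genes. *Igf2bp2*, an RNA-binding protein that promotes translation of *Igf2* mRNA, was 8.06-fold lower in LuM1 cells than in Colon26 cells and 7.43-fold lower than in NM11 cells, and its 2 probes gave log2 ratios of -3.01 and -3.20 over Colon26. *Lin28b*, which blocks let-7 microRNAs, was not seen in Colon26 cells and gave 32.7 ± 5.44 in LuM1 cells and 116 ± 12.3 in NM11 cells by its brightest probe. Of its 2 other probes, 1 was read in NM11 cells alone, at 40.0, and 1 on no array. In LuM1 over NM11, 1 of 23 was higher (*Tgfb1*), against 10.6% of all genes, and 5 were lower, against 9.41%. Nearest to the 2-fold line of these 5 was *Dnmt1*, the enzyme that copies DNA methylation marks, with a log2 ratio of -1.02. Scaling to *Hprt* raised every LuM1 over NM11 log2 ratio by 0.63, and scaling to spike-in control spots lowered it by 0.14. The *Dnmt1* call therefore depends on the scaling.

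The labelled cell type was checked against marker genes. Of 12 markers of colon epithelium, 5 were well above background on at least 1 array, *Cdh1*, *Vil1*, *Krt18*, *Krt19*, *Lgr5*, *Muc2* and *Cdx1* were not, and *Epcam* was so in LuM1 cells alone and close to the limit. *Krt20*, a keratin of differentiated colon epithelium, was 12.1-fold lower in LuM1 cells than in Colon26 cells. *Krt8*, another keratin, went the other way and was 3.67-fold higher in LuM1 cells than in Colon26 cells. For LuM1 over Colon26, *Cdx2* and *Car1* had log2 ratios of -0.95 and 0.60, both short of 2-fold. Of 10 mesenchymal markers, 9 were well above background on at least 1 array. In LuM1 over Colon26, 4 of them were at least 2-fold higher and 2 lower, against 12.9% and 12.2% of all genes. Their summed signal was 438299 in Colon26, 427149 in LuM1 and 574040 in NM11. Such sums are led by the brightest probes, here *S100a4* (270083, 293529 and 350963 in the same order) and *Vim*, and say little of the other markers. *Pdgfra*, a receptor of fibroblasts, gave 218 ± 22.6 in Colon26 cells, 3909 ± 391 in LuM1 cells and 1307 ± 131 in NM11 cells, the order of lines of *Igf2r*. *Thy1* exceeded its Colon26 level by at least 731-fold in LuM1 cells, *Col1a2*, a collagen chain, was 1223-fold lower than in Colon26, and *Lum* was not seen. Some markers of other cell types were highest in LuM1 cells, as *Igf2r* and *Peg10* were, and others were not. Of 6 myeloid markers, 4 were well above background on at least 1 array, their summed signal was 5893 in Colon26, 12702 in LuM1 and 5333 in NM11, and *Cd68* and *Lyz2* were higher in LuM1 cells than in both others. *Csf1r* was level at 681, 681 and 685 and *Itgam* gave 5019, 6721 and 4318 in Colon26, LuM1 and NM11, while *Ptprc* and *Adgre1* were not well above background on any array. The 4 endothelial markers summed to 404, 15161 and 162 in the same order. *Cd93* gave 341, 15100 and 71.4 of these sums. *Pecam1* gave 51.2, 52.2 and 79.5, level between Colon26 and LuM1 and highest in NM11. *Cdh5* and *Kdr* were not seen. The part of the cell type markers in the member differences was not tested.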

How the data were processed

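Gene expression was measured in 3 samples, 1 single-colour Agilent SurePrint G3 mouse array for each of Colon26, LuM1 and NM11, and groups were taken from the sample titles. For every spot, the authors deposited an intensity written by Agilent Feature Extraction 11.5.1.1, background-corrected and not scaled between arrays, together with flags of 0 or 1 for outliers and detection. The intensity table deposited for the series held the same values multiplied by a constant, which was 0.654 (Colon26), 0.829 (LuM1) or 0.706 (NM11). How these factors were set is not given in the sources used here.

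Control and outlier spots were left out, spots of a repeated probe were averaged, and arrays were brought to a common 75th percentile over probes, which beforehand was 398 (Colon26), 433 (LuM1) and 371 (NM11). Probes were named through RefSeq accessions of GRCm38.p6, 32994 of 56605 (58.3%). No probe coordinates are given, because the array was designed on an earlier assembly. Ratios were taken on the log2 scale, and a bound was given where only 1 array of a pair was well above background. No ratio was given where both were not, or where a bound fell under 1. No test was run, since each line had 1 array. Precision is limited by the number of arrays. The median SD among the spots of one repeated probe was 0.035 to 0.040 (log2).

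The members and lists were chosen with earlier results of these data known. Every member and probe is reported. Genes of the lists are named where they were at least 4-fold apart in a comparison, at most 8 a list, with the detected neighbours, *Igf1r* and *Insr*, and some list genes are not reported here. Other list genes behind a count of 5 or fewer, and those named in the marker lists, were named after their values were seen. Alternatives covered scaling, background correction, detection, the choice of probe, the threshold and outlier spots. The code was tested on simulated data. Promoter sequences were in the RefSeq table for 8 of the 10 members. The software was Python 3.11.15 (pandas 2.3.3, numpy 2.4.6, matplotlib 3.10.9, scipy 1.17.1), and limma 3.58.1 in R 4.3.3 for normexp.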

Additional observations from a re-analysis of the deposited data

How the results depend on the processing

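Each count of members and each member value was recomputed under 15 alternatives, of which 13 were planned and 2 (the 75th percentile over all spots, and leaving out probes in patches of spots seen on 1 array alone) were chosen after seeing the data. *Igf2r* stayed at least 2-fold higher in LuM1 cells in all 14 alternatives that recompute the ratio. The log2 ratio ranged from 1.46 to 1.98 over Colon26 and from 1.15 to 1.92 over NM11. Its 1 probe was well above background on every array, so the alternatives of detection, choice of probe and patches could not move it. *Peg10* kept its direction in the 12 that gave a value, from 1.60 to 4.94 over Colon26 and from 1.54 to 3.77 over NM11, but gave none with the next-brightest probe or without patch probes. No value beyond 2-fold changed sign. In an alternative that gave a bound the sign could not change, because no bound under 1-fold was given.

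The count of members at least 2-fold higher in LuM1 over Colon26 and over NM11 was 2, and fell to 1 in each with the next-brightest probe, with a 4-fold threshold (*Peg10* alone) and without patch probes. Over Colon26 it was 3 with detection by the significance flag or with no filter on dim probes, which added *Dlk1*. *Grb10*, just short of 2-fold, made the count of lower members 1 in place of 0 in LuM1 over Colon26 with quantile normalization, the significance flag and no filter, and in NM11 over Colon26 with no scaling, scaling over probes well above background on all arrays, *Hprt*, the significance flag and no filter. The significance flag and no filter made the count of higher members in NM11 over Colon26 1 (*Peg10*) in place of 0. Of the scalings, the authors' values raised every LuM1 over Colon26 ratio by 0.46 (log2) and *Hprt* lowered every NM11 over Colon26 ratio by 0.51.

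Normexp was run on median brightness. No paired analysis was possible because each line had 1 array. Signals below the detection limit leave 6 members without a ratio, and bounds say nothing of how far a level lies below the limit.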
